A study of Mus musculus with 19 samples.

Results

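The wildtype adult cerebellum was compared with the wildtype whole brain at embryonic day 13.5 (E13.5) in mice from a study of *Wiz*, which encodes a widely interspaced zinc finger protein of the G9a/GLP histone methyltransferase complex. The members were chosen by their labels alone: the 3 cerebellums labelled Wiz +/+ and the 3 male E13.5 brains labelled Wiz +/+, which is 6 of the 19 samples of the series and 6 of its 16 RNA-seq samples. The cerebellums came from males of 56 days post partum and the brains from embryos of 13.5 days post coitum. All 6 animals are labelled as strain FVB (FVB/NJ in the study's methods), and the study's methods describe a *Line3* background that carries a multicopy GFP transgene under human α-globin elements in both groups. The study used these samples as controls for the *MommeD30* mutation, so the contrast described here is one that its design holds but did not set out to make. Stage and region changed together, and their parts in any difference cannot be told apart.

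At E13.5 the mouse brain is a neuroepithelium in rapid expansion. Radial glia divide at the ventricular surface, newborn neurons migrate outward and extend axons, and transcription factors mark out forebrain, midbrain and hindbrain territories. The cerebellum is then a small primordium on the hindbrain, and most of its granule neurons have not been born. In the adult, the cerebellum is dominated by granule cells, whose parallel fibres synapse on Purkinje cells, the sole output neurons of the cerebellar cortex. Bergmann glia, astrocytes, myelinating oligodendrocytes and inhibitory interneurons complete it. Cerebellar output circuits fire fast, and their neurons are known for high levels of calcium signalling, fast potassium channels and pumps.

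For each library, polyA RNA was sequenced and the number of reads on each Ensembl gene was deposited. The cerebellum libraries held 29621607 to 30666443 counts, and the brain libraries held 16386029, 34375227 and 50459755. Levels are given as depth-scaled read counts (CPM) after TMM scaling, a method that sets libraries on a common scale by genes that change little, and 1 gene's CPM can be compared between libraries but not with another gene's. A low-count filter kept 16840 of 41388 gene identifiers. Across genes, which are not independent replicates, the correlation of log2 CPM (Pearson's r) was 0.995 to 0.997 between libraries of a group and 0.781 to 0.791 between groups. Mitochondrially encoded genes held 3.70% to 3.80% of counts in cerebellum and 1.47% to 1.55% in brain, and globin genes held at most 0.0219% and 0.102%. The labelled tissues carried their defining markers, as described below for *Gabra6* and *Pcp2* in cerebellum and for *Lhx2*, *Dcx* and *Mki67* in brain.

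Differences of 2-fold or more were widespread and, with TMM scaling, nearly balanced in direction. A gene was called when the adjusted p of edgeR's quasi-likelihood test was at most 0.05 and the fold change at least 2. This rule called 7422 of 16840 genes, or 44.1%, with 3804 (22.6%) higher in cerebellum and 3618 (21.5%) higher in brain. These shares are the background for every list count below. Without the fold limit the test called 14568 genes (86.5%), so the fold limit and not the p decided most calls. The 6 libraries split by group without overlap for 14679 genes (87.2%), including 7399 of the 7422 called. Beyond 32-fold the balance tipped toward the embryo, with 464 genes higher in brain and 291 higher in cerebellum. There were 73 genes with at least 100 counts in brain and none in any cerebellum library, against 16 with the reverse pattern. The median fitted log2 fold change, coded as cerebellum minus brain, was -0.015 over all genes tested, with a median standard error of 0.068. Both this median and the balance depend on the scaling. By library totals alone, 3225 genes were higher in cerebellum and 4377 higher in brain, with a median of -0.23. In bulk tissue, a lower value can come from fewer cells of a type or from less RNA per cell, and these cannot be told apart.

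**Figure D1:**
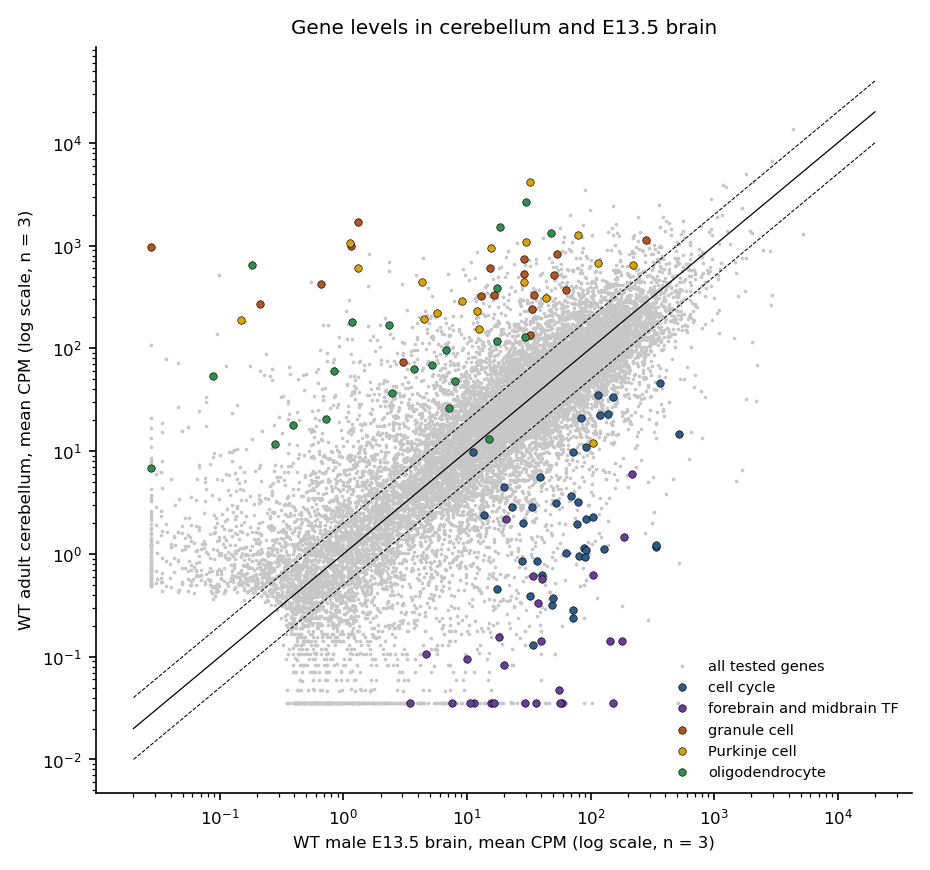
Mean CPM of each tested gene in 3 WT male E13.5 brains (horizontal axis) and 3 WT adult cerebellums (vertical axis), both on log scales. The solid line marks equal levels, the dashed lines mark a 2-fold difference, and coloured points are members of 5 gene lists. A group whose mean is below a floor of 3 counts over the group, with or without a read, is drawn at that floor. Granule cell, Purkinje cell and oligodendrocyte genes lie above the lines with few exceptions, and cell cycle and forebrain and midbrain transcription factor (TF) genes lie below.

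The largest fold change toward the cerebellum was that of *Gabra6*, the GABA-A receptor α6 subunit of mature granule cells, at chr11:42306437-42321072 on the minus strand of GRCm38. It was at 953, 968 and 961 CPM in the 3 cerebellums and had 1 read in all 3 brains together. The ratio of summed CPM was 104282, with a 95% counting interval whose lower bound was 18716. Such intervals cover counting error only. Next came *Gpr37l1*, an astrocyte receptor, at 516, 526 and 513 CPM against 0.13, 0.0561 and 0.108 CPM. *Mobp*, a structural protein of compact myelin, was at 665, 626 and 658 CPM against 0.13, 0.336 and 0.0812 CPM. All 3 genes were thus abundant in every cerebellum and at trace level in every brain. Others of the 12 largest were the G protein subunit *Gng13*, the glial filament *Gfap*, the granule cell synapse protein *Cbln3*, the Purkinje cell gene *Pcp2*, the δ subunit *Gabrd*, the potassium channel subunit *Kcng4* and the carbonic anhydrase-related *Car8*. *Mybpc3*, a myosin-binding protein known from heart muscle, was among them too, at 86, 75.4 and 73 CPM in cerebellum, with 3 reads in brain and a ratio of 2829 (95% counting interval 968 to 13722). *Sowahb* was also among the 12, at 69.7, 75.3 and 71.3 CPM against 0.0558, 0 and 0.0812 CPM.

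Toward the embryo the largest fitted change was that of *Hbb-y*, an embryonic β-like globin of primitive red cells. It had no read in cerebellum and was at 401, 495 and 639 CPM in the brains, at least 14389.9-fold higher by the floor of 3 counts over the group. *Dlx2*, a factor of forebrain interneuron precursors at chr2:71543408-71546754 on the minus strand, was likewise without a cerebellar read and at 51.5, 62.3 and 55.3 CPM in the brains, at least 1584-fold higher. For both genes the groups lay far apart, with no cerebellum library holding a read. *Igf2bp1*, a fetal RNA-binding protein, was at 82.2, 87 and 97.6 CPM in brain with 2 reads in cerebellum, a ratio of 3721 (95% counting interval 1029.7 to 30726). Others of the 12 were *Hoxb8*, *Shox2*, *Nr2e1*, *Igfbpl1*, *Lhx2*, *Isl1* and *Dlx1*, of which all but *Igfbpl1* encode transcription factors.

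**Figure D2:**
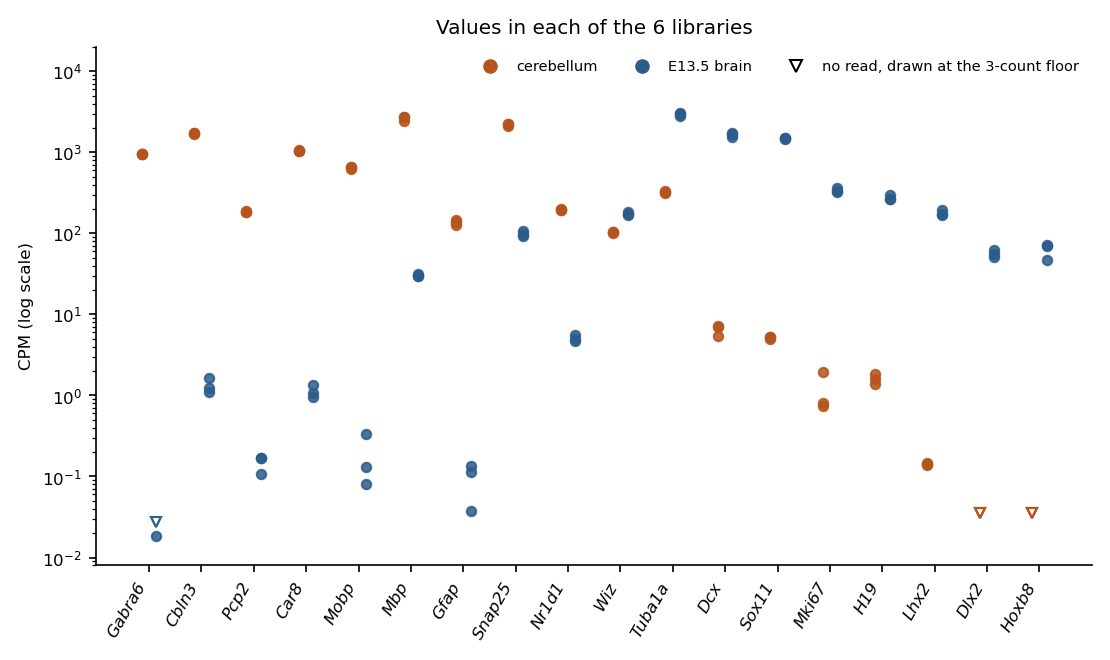
CPM of 18 genes in each of the 6 libraries (log scale), with cerebellum libraries in orange and E13.5 brain libraries in blue. Filled points are libraries with reads and open triangles are libraries without a read, drawn at a floor of 3 counts over the group. The 3 libraries of a group lie close together for each abundant gene, and *Gabra6* and *Dlx2* have libraries without a read in opposite groups.

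By difference in mean CPM rather than ratio, a ranking of read counts with no correction for transcript length, other genes led. In cerebellum these were 4 mitochondrially encoded subunits of the respiratory chain and a pair of signalling genes. *Itpr1*, the inositol trisphosphate receptor that releases calcium from Purkinje cell stores, was at 3999, 4464 and 4143 CPM against 33.2, 31.5 and 32.1 CPM. *Adcy1*, a calcium-stimulated adenylyl cyclase, was at 3339, 3599 and 3383 CPM against 105, 79.2 and 86 CPM. In brain they were genes of translation and the young neuronal cytoskeleton. *Eef1a1*, a translation elongation factor, was at 5163, 5342 and 5228 CPM in brain and 1315, 1292 and 1283 CPM in cerebellum. *Tuba1a* and *Tubb5*, tubulins of growing neurons, were at 2833, 3052 and 2996 CPM and at 2783, 3018 and 2786 CPM in brain, against 338, 315 and 329 CPM and 268, 257 and 260.3 CPM in cerebellum. *Dpysl3* and *Map1b*, which bind microtubules and growth cone proteins, and the imprinted *Nnat* completed the 6. Tubulin genes and *Eef1a1* have near-identical relatives or processed copies, and how reads shared with them were counted is not given in the sources used here.

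The cell cycle genes were higher in the embryo almost without exception. Of 40 cell cycle and DNA replication genes, 39 were called higher in brain and none higher in cerebellum, against 21.5% of all genes, and their median log2 fold change was -5.20. Their summed level was 3727 to 4123 CPM in the brains and 271.4 to 286.2 CPM in the cerebellums. *Mki67*, a proliferation antigen coating mitotic chromosomes, was at 327, 332 and 363 CPM in brain and 0.81, 1.93 and 0.736 CPM in cerebellum, a log2 fold change of -8.21 (SE 0.13). *Top2a*, the topoisomerase that untangles replicated DNA, was at 317, 338 and 359.8 CPM against 0.599, 2.12 and 0.947 CPM. *Ccnb1*, the cyclin that drives entry into mitosis, was at 66.7, 69.9 and 77.7 CPM against 0.0705, 0.438 and 0.21 CPM. Cerebellum replicate 2 held the highest value of all 3 genes within its group, still far below every brain. Some members had smaller ratios. *Cdk4*, the kinase partner of D cyclins, was at 345, 379 and 368 CPM against 45.2, 46.4 and 47.8 CPM, and the sliding clamp *Pcna* was at 108, 119 and 117 CPM against 34.2, 34.3 and 36.8 CPM. Levels of the replicative helicase subunits differed unequally, by a log2 fold change of -6.38 for *Mcm6* and -1.98 for *Mcm4*. The one gene not called was the G1 cyclin *Ccne1*, at 10.5, 11.9 and 11.4 CPM in brain and 9.72, 9.88 and 9.5 CPM in cerebellum.

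Because the cell cycle genes moved together, their promoters were searched for motifs known from cell cycle control. The 250 bases before the RefSeq transcription start (GRCm38.p6) are shown for the 3 genes of the list with the largest fitted fold change, 5′ to 3′ on the gene's strand, which is the minus strand for all 3. Capitals mark every match, on either strand, to the core of the NF-Y box (CCAAT), the cell cycle genes homology region (TTTGAA or TTCGAA) or the E2F site (TTCCCGC or TTGGCGC), and adjoining capitals can hold overlapping matches.
Ccnb1, chr13:100786487-100786736: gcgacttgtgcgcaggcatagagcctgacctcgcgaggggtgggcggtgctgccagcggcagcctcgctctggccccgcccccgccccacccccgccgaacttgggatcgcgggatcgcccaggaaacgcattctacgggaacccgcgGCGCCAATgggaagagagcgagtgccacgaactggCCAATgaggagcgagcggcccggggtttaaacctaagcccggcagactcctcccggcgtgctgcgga
Mki67, chr7:135716380-135716629: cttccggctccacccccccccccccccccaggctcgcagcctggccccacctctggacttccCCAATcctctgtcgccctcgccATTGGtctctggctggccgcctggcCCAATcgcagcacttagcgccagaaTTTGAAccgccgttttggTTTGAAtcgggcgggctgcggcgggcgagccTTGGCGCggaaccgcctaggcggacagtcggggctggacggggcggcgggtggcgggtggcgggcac
Top2a, chr11:99024190-99024439: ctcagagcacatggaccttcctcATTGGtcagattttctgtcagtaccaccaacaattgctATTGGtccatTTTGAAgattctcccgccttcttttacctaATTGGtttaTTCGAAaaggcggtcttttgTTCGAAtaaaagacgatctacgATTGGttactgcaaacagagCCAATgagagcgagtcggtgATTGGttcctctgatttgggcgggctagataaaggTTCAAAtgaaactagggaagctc
These stretches held 3, 6 and 10 matches. In a wider window, from 250 bases before to 50 after the start, a promoter was found for 32 of the 40 genes, and 24 of them (75.0%) held CCAAT, against 38.02% of 27025 genes with a promoter in the table and 38.5% of 12437 tested genes with one. The backgrounds that follow are given in the same order. The homology region letters TTTGAA stood in 13 of 32 (40.6%) against 18.2% and 11.96%, and TTCGAA in 4 of 32 (12.5%) against 1.57% and 1.95%. For the E2F letters the shares were 18.8% against 4.67% and 8.03% for TTCCCGC, and 28.1% against 2.57% and 4.31% for TTGGCGC. A match is a description of these letters, and binding was not measured.

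Progenitor and newborn neuron genes were also higher in the embryo. Of 24 neural progenitor and neurogenesis genes, 20 were called higher in brain and none higher in cerebellum (median log2 fold change -3.33). *Sox11*, a factor that opens the neuronal programme, was at 1509, 1471 and 1503 CPM in brain and 4.97, 5.29 and 5.23 CPM in cerebellum. *Nes*, the intermediate filament of radial glia, was at 357, 401 and 419 CPM against 20.9, 20.6 and 24.7 CPM. *Neurog2*, a proneural factor of the cortex and midbrain, was at 86.1, 89 and 88.1 CPM against 0.317, 0.292 and 0.105 CPM. The 4 members that were not called included *Pax6*, a factor that granule cells keep. It was at 90.1, 99.7 and 93.4 CPM in brain and 134, 140.2 and 139.9 CPM in cerebellum. *Eomes*, which also marks unipolar brush cells, was at 81.7, 77.4 and 65.9 CPM and 61.5, 66.7 and 65.5 CPM, and against female brains it was called higher in cerebellum. *Ednrb* and *Ptn* had log2 fold changes of 0.35 and -0.78. Of 25 genes of new neurons and axon growth, 21 were called higher in brain and none higher in cerebellum (median -2.96). *Dcx*, the microtubule protein of migrating neurons, was at 1743, 1567 and 1691 CPM in brain and 5.36, 7.11 and 7.08 CPM in cerebellum, a log2 fold change of -8.00 (SE 0.08). *Dcc*, the netrin receptor, was at 134, 137 and 145 CPM against 1.02, 1.53 and 1.09 CPM. The 4 not called were *Ebf1*, *Elavl4*, *Stmn2* and *Cntn2*, of which the last pair had 663, 614 and 611 CPM and 471, 450.4 and 444 CPM in brain and 579.6, 581 and 589 CPM and 509, 513 and 494 CPM in cerebellum. *Cntn2* encodes a contactin carried by parallel fibres and myelinated axons.

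The transcription factors that pattern the forebrain and midbrain separated the groups widely. All 26 forebrain and midbrain factors were called higher in brain (median log2 fold change -9.03), and 8 of them had no read in any cerebellum. With those 8 set to the bound that the floor allows, the median was -7.96. *Lhx2*, a cortical selector, was at 171, 193 and 172 CPM in brain and 0.141, 0.146 and 0.14 CPM in cerebellum. *Tbr1*, which also marks deep-layer cortical neurons, was at 115, 108 and 92 CPM against 0.493, 0.656 and 0.701 CPM. *Tcf7l2*, a thalamic Wnt effector, was at 189, 244 and 218 CPM against 6.13, 6.38 and 5.51 CPM, and *Nkx2-1*, of the hypothalamus and ventral forebrain, at 31.5, 40 and 40.7 CPM against 0.211, 0.438 and 0.351 CPM. Every brain was above every cerebellum for each of these.

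The hindbrain and cerebellar factors did not move as a group. Of 23 tested, 14 (60.9%) were called higher in brain and 5 (21.7%) higher in cerebellum. Over all genes the shares were 21.5% and 22.6%, so the share higher in cerebellum was near that of all genes. The 5 were *Zic1*, *Zic2*, *En2*, *Rora* and *Etv1*, which mark granule or Purkinje cells. *Zic1* was at 1119, 1134 and 1160 CPM in cerebellum and 268, 279 and 291 CPM in brain, and *En2* at 185, 188 and 185 CPM against 30.5, 34.9 and 33.3 CPM. *Zic4*, *Barhl1*, *Barhl2* and *Lhx1* were not called, and *Lhx1*, a Purkinje cell and early hindbrain factor, was at 83.2, 85.2 and 84.8 CPM in cerebellum and 84.5, 91.7 and 96.1 CPM in brain. *Atoh1*, which founds the granule cell lineage in the rhombic lip, had no read in the adult cerebellum and was at 2.04, 2.41 and 2.25 CPM in brain, at least 62.8-fold higher. All 8 *Hox* genes of the list were called higher in brain, and over the whole family 22 of 22 tested *Hox* genes were, a count made after their values had been seen. *Hox* genes pattern the hindbrain and spinal cord, and the cerebellum arises ahead of their domain. Their summed level was 354.8, 273.4 and 355.9 CPM in the 3 brains and at most 1.68 CPM in cerebellum. The brains differed in the more posterior genes: *Hoxb9* was at 37.2, 10.5 and 28.3 CPM, *Hoxb8* at 72.1, 46.6 and 69.9 CPM and *Hoxa7* at 4.59, 1.12 and 3.87 CPM in brain replicates 1, 2 and 3, whereas *Hoxb5* was at 39, 39.5 and 40.4 CPM. Brain replicate 2 was lowest for the first 3 genes and level with the others for *Hoxb5*. How far caudally each brain was cut is not given in the sources used here.

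The fetal growth programme was higher in the embryo in the same way. Of 20 genes, 18 were called higher in brain and none higher in cerebellum (median -4.15). *H19*, an imprinted noncoding RNA, was at 263, 268 and 295 CPM in brain and 1.37, 1.6 and 1.86 CPM in cerebellum. *Igf2*, its growth factor neighbour, was at 304, 314 and 342 CPM against 139.7, 134 and 132 CPM, a log2 fold change of -1.24 (SE 0.05), against -7.41 for *H19*. *Lin28b*, which blocks let-7 maturation, was at 29.7, 27.4 and 28.6 CPM against 2.71, 3.1 and 2.56 CPM, and *Hmga2*, a chromatin protein of fetal stem cells, at 26.6, 31.9 and 36.1 CPM against 0.176, 0.0729 and 0.351 CPM. The 2 genes that were not called were *Hmga1* and *Arid3a*.

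**Figure D3:**
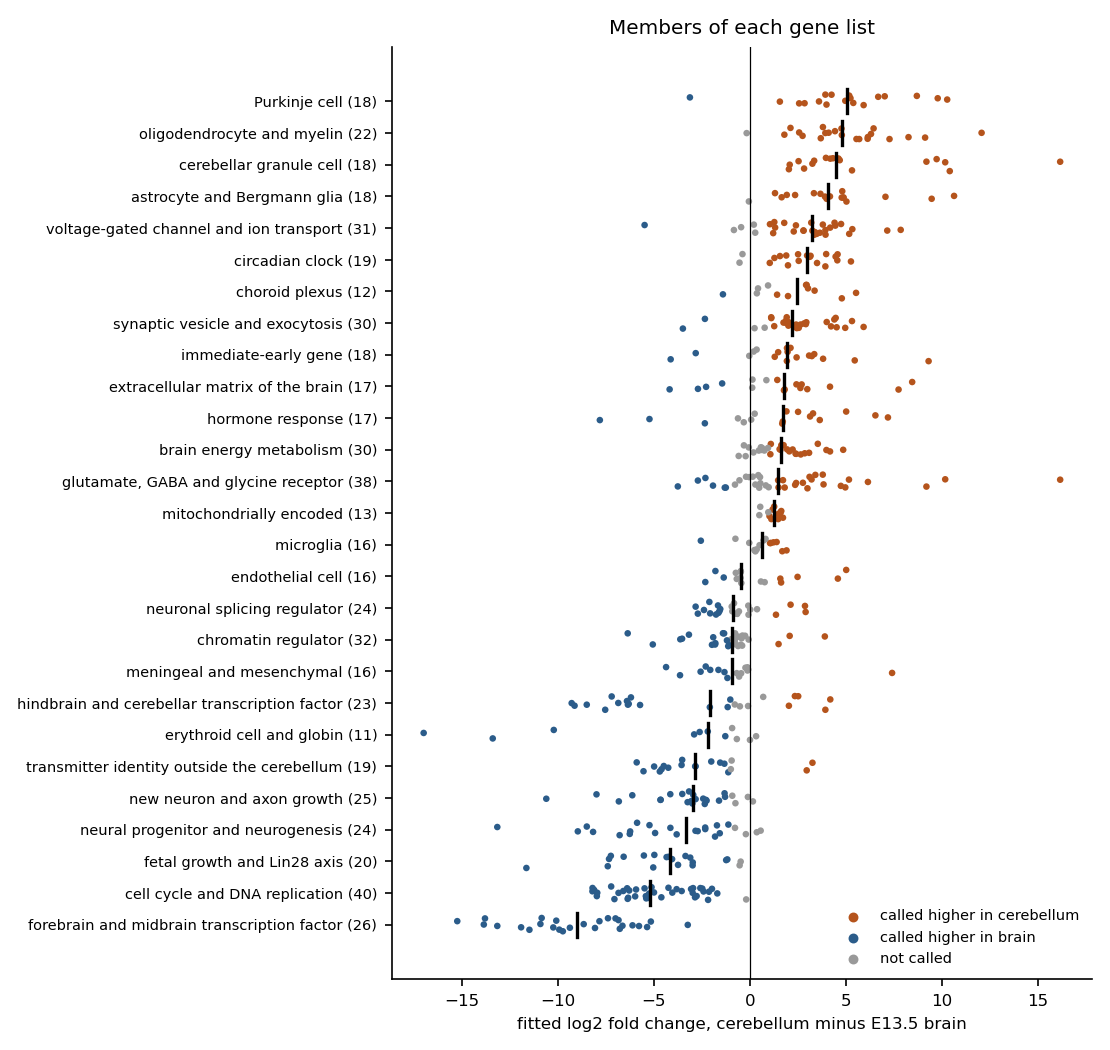
Fitted log2 fold change (cerebellum minus E13.5 brain) of each tested member of 27 gene lists, with the number tested in parentheses and the list median as a black bar. Orange points were called higher in cerebellum, blue points higher in brain and grey points were not called, and the vertical line marks no difference. Medians run from -9.03 for forebrain and midbrain transcription factors to 5.07 for Purkinje cell genes.

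In the adult cerebellum, the genes of its own neurons were higher. All 18 granule cell genes were called higher in cerebellum, against 22.6% of all genes (median log2 fold change 4.46), and their summed level was 10428 to 10667 CPM in cerebellum and 652.7 to 661.4 CPM in brain. *Cbln3*, a partner of cerebellin 1 secreted at parallel fibre synapses, was at 1742, 1720 and 1673 CPM against 1.23, 1.63 and 1.11 CPM. *Fat2*, a cadherin of parallel fibres, was at 929.9, 1043 and 1004 CPM against 1.21, 1.12 and 1.14 CPM. *Grin2c*, the NMDA receptor subunit of mature granule cells, was at 433, 422 and 410.2 CPM against 0.855, 0.505 and 0.623 CPM. Members with a sizeable level in the embryo too included *Zic1*, above, and *Neurod1*, a differentiation factor at 514, 521 and 519 CPM against 55.4, 48 and 48.6 CPM. Another was *Pde1c*, a phosphodiesterase at 128, 132 and 147 CPM against 32.9, 31.7 and 32.1 CPM.

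Of 18 Purkinje cell genes, 17 were called higher in cerebellum and 1 higher in brain (median 5.07). *Car8*, a regulator of the inositol trisphosphate receptor, was at 1042, 1074 and 1047 CPM against 1.36, 0.953 and 1.08 CPM. *Pcp2*, a G protein modulator found in few cells outside the Purkinje layer and the retina, was at 192, 185 and 186 CPM against 0.167, 0.168 and 0.108 CPM. *Calb1* and *Pvalb*, calcium buffers, were at 954, 953 and 943 CPM and at 607, 599 and 596 CPM in cerebellum, against 14.8, 15.2 and 17.1 CPM and 1.73, 0.897 and 1.33 CPM in brain. The exception was *Foxp2*, at 11.7, 11.8 and 12.2 CPM in cerebellum and 103, 108 and 103 CPM in brain, a log2 fold change of -3.13 (SE 0.05). *Foxp2* is a Purkinje cell factor that is also expressed in the embryonic thalamus, striatum and medulla.

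Glial genes followed the neurons of the cerebellum. Of 18 astrocyte and Bergmann glia genes, 17 were called higher in cerebellum and none higher in brain (median 4.08). *Aldoc*, a glycolytic enzyme of astrocytes and of striped Purkinje cell zones, was at 2025, 1957 and 1935 CPM against 75.9, 66.2 and 61.4 CPM. *Gfap* was at 138, 129 and 147 CPM against 0.0372, 0.112 and 0.135 CPM, and *Aqp4*, the water channel of astrocyte endfeet, at 430.4, 419.6 and 427 CPM against 3.46, 1.91 and 3.49 CPM. *Fgfr3*, which embryonic progenitors use too, was not called, at 111, 99.3 and 100 CPM in cerebellum and 99.9, 118 and 108 CPM in brain. Of 22 oligodendrocyte and myelin genes, 21 were called higher in cerebellum and none higher in brain (median 4.78). *Mbp*, a main protein of compact myelin, was at 2709, 2465 and 2704 CPM in cerebellum and 31.2, 29.7 and 29.5 CPM in brain. *Olig2*, the lineage factor that also specifies motor neuron progenitors, was the one that was not called, at 13.7, 12.6 and 13.3 CPM in cerebellum and 14.5, 15.4 and 15.1 CPM in brain, while its relative *Olig1* was at 49.9, 46 and 47 CPM against 9.03, 7.96 and 6.9 CPM.

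Microglial, endothelial and meningeal genes held calls in both directions. Of 16 microglial genes, 6 (37.5%) were called higher in cerebellum and 1 (6.25%) higher in brain (median 0.60). Their summed level was 156.2 to 164.1 CPM in cerebellum and 108.6 to 118.4 CPM in brain. *Cx3cr1*, the fractalkine receptor, was at 12.3, 12 and 11.5 CPM and 12.8, 11.4 and 12.2 CPM. *Mrc1*, a mannose receptor of border macrophages, was higher in brain, at 23.1, 24.5 and 25.4 CPM against 4.16, 4.49 and 3.68 CPM. Of 16 endothelial genes, 5 were called higher in cerebellum and 3 higher in brain, with summed levels of 590.6 to 641.9 CPM and 574.0 to 597.7 CPM. These are 31.2% and 18.8% of the list, near the 22.6% and 21.5% of all genes. Those higher in brain were *Kdr*, *Cdh5* and *Tie1*, the VEGF receptor, junction and angiopoietin pathway genes, with *Kdr* at 83.4, 87.6 and 91.2 CPM against 17.8, 15.8 and 18.4 CPM. Those higher in cerebellum included the barrier transporters *Slco1a4*, at 44.5, 47 and 44.3 CPM against 1.84, 2.07 and 1.87 CPM, and *Abcb1a*, at 39.7, 38.5 and 40.5 CPM against 7.36, 6.62 and 7.07 CPM. The transporters *Slc2a1*, for glucose, and *Slc7a5*, for amino acids, were not called, with log2 fold changes of 0.57 and -0.50. Among 16 meningeal and mesenchymal genes, 8 were called higher in brain, including the collagen *Col3a1* at 232, 221 and 261 CPM against 10.4, 10.1 and 14 CPM, and 1, the prostaglandin synthase *Ptgds*, higher in cerebellum at 769, 655 and 839 CPM against 5.06, 4.43 and 3.65 CPM. Myelinating cells and leptomeninges both express *Ptgds*. The calls higher in brain were 50% of this list, and the call higher in cerebellum was 6.25%.

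Choroid plexus genes were higher in the cerebellum libraries in 8 of 12 cases (66.7%) and lower in 1 (8.33%). Over all genes the shares were 22.6% and 21.5%. *Enpp2*, among those called higher, is also in the oligodendrocyte and myelin list. *Ttr*, the thyroid hormone carrier of cerebrospinal fluid, was at 1931, 1976 and 1739.7 CPM against 219, 265 and 248 CPM, and *Kl*, an FGF co-receptor, at 69.3, 73 and 64.1 CPM against 1.64, 1.4 and 1.33 CPM. *Otx2* was lower, at 24.8, 23.1 and 23.3 CPM against 58.9, 70.5 and 61.8 CPM, and it also marks the embryonic forebrain and midbrain. The fourth ventricle's plexus adjoins the cerebellum. Of 11 tested erythroid genes, 7 (63.6%) were called higher in brain and none higher in cerebellum. In the MommeD30/+ samples, 5 of 10 tested were called higher in brain and 1 higher in cerebellum. Adult *Hbb-bs* was at 71.4, 100.5 and 111 CPM in cerebellum and 81.4, 71.8 and 72.5 CPM in brain, whereas the embryonic *Hba-x* had no read in cerebellum and was at 30, 47.2 and 51.5 CPM in brain. The adult α-globin genes *Hba-a1* and *Hba-a2* are near-identical, so their separate values are uncertain.

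Synaptic vesicle and exocytosis genes were higher in the mature tissue. Of 30, 26 were called higher in cerebellum and 2 higher in brain (median 2.21). *Snap25*, a SNARE of the presynaptic membrane, was at 2089, 2263 and 2241 CPM against 107, 92.7 and 97.8 CPM, and *Syt2*, a fast calcium sensor for release, at 697, 706 and 671 CPM against 13.3, 8.19 and 11 CPM. The vesicular glutamate transporter *Slc17a6* was lower, at 26.8, 20.5 and 31.9 CPM against 140.3, 127 and 136 CPM, and *Stx1a* was too, at 4.19, 4.19 and 4.66 CPM against 52.1, 51.9 and 44 CPM. *Syt4* and *Sv2c* were not called. *Vamp2*, a vesicle SNARE, was at 822, 821 and 821 CPM in cerebellum and 212, 209 and 195 CPM in brain, a sizeable level in the embryo too.

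Receptor subunits were called in both directions. Of 38 tested glutamate, GABA and glycine receptor genes, 20 (52.6%) were called higher in cerebellum and 6 (15.8%) higher in brain (median 1.48). Over all genes the shares were 22.6% and 21.5%. Among those higher in cerebellum, *Grm4*, a presynaptic receptor of parallel fibres, was at 571, 569 and 547 CPM against 16.9, 15.8 and 14.4 CPM. The 6 higher in brain were *Grin2b*, *Gabra3*, *Gabra5*, *Gabrg3*, *Grm5* and *Glra2*. *Grin2b*, the GluN2 subunit of young synapses, was at 141, 110.3 and 116 CPM against 22.6, 24.1 and 27.2 CPM, and *Glra2*, the fetal glycine receptor subunit, at 41.7, 31 and 32.9 CPM against 2.18, 2.33 and 3.37 CPM. *Gria2*, which makes AMPA receptors impermeable to calcium, was not called, at 457, 489 and 479 CPM in cerebellum and 361, 303 and 315 CPM in brain, while *Gria4* was at 589, 616 and 584 CPM against 68.7, 59.3 and 64.3 CPM. *Glra1* varied within cerebellum, at 4.4, 1.28 and 4.1 CPM, against 1.86, 1.79 and 1.87 CPM in brain. It was not called with all libraries (log2 fold change 0.82 (SE 0.30)), but was without cerebellum replicate 2 (1.21).

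Channels and ion pumps of excitable cells were higher in cerebellum. Of 31 tested, 26 were called higher in cerebellum and 1 higher in brain (median 3.25). *Atp1b1*, a sodium pump subunit, was at 1596, 1565 and 1596 CPM in cerebellum and 97.2, 79.7 and 84.2 CPM in brain. *Cacna1a*, the P/Q-type calcium channel, was at 573, 587 and 567 CPM against 58, 52.3 and 53.6 CPM. The one higher in brain was *Scn3a*, the fetal sodium channel, at 208, 189.8 and 205 CPM against 3.7, 3.97 and 5.72 CPM.

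Genes of energy supply were higher in cerebellum or not called. Of 30 tested energy metabolism genes, 19 were called higher in cerebellum and none higher in brain (median 1.61). *Eno2*, the neuronal enolase, was at 1102, 1058 and 1085 CPM against 65.5, 60 and 54.3 CPM, while *Eno1*, the general form, was at 386, 374 and 382 CPM against 247, 247 and 258 CPM and was not called. *Ckmt1*, the mitochondrial creatine kinase, was at 223, 207 and 213 CPM against 14.7, 13.6 and 12.2 CPM, and *Ppargc1a*, a coactivator of mitochondrial genes, at 85.8, 86.5 and 86.1 CPM against 22.5, 20 and 19.4 CPM. Of 13 mitochondrially encoded genes, 10 were called higher in cerebellum (median 1.26), but 7 with libraries scaled by their totals alone and 9 by upper quartile. *mt-Co1* was at 13496, 13345 and 13656 CPM against 4462, 4185 and 4439 CPM. *mt-Co2* and *mt-Co3*, subunits of the same complex, were at only 2.4, 1.71 and 2.07 CPM and 0.775, 1.06 and 1.23 CPM in cerebellum. *mt-Nd3*, *mt-Atp6* and *mt-Nd4l* were also at only a few CPM. All of these low genes are among the 13, so that count does not rest on well-measured genes alone. Mitochondrial genes have nuclear copies, and how reads shared with them were counted is not given in the sources used here. Without mitochondrial and globin genes, 7411 genes were called.

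Genes of the extracellular matrix were called in both directions. Of 17 genes, 10 (58.8%) were called higher in cerebellum, against 22.6% of all genes. Another 4 (23.5%) were called higher in brain, near the 21.5% of all genes. Higher in brain were the lecticans *Ncan*, at 355, 333 and 330.5 CPM against 17.8, 19.3 and 18.7 CPM, and *Vcan*, at 414, 375 and 431 CPM against 59.8, 64.9 and 61.8 CPM, with the glycoprotein *Tnc* and the link protein *Hapln3*. Higher in cerebellum were *Bcan*, a lectican of the mature matrix, at 185, 173 and 185 CPM against 33.7, 26.1 and 26.7 CPM, and the link proteins *Hapln4*, at 237, 228 and 222 CPM against 1.04, 0.897 and 1.19 CPM, and *Hapln2*, at 32.1, 26.8 and 32 CPM against 0.0929, 0.0561 and 0.0812 CPM. *Reln*, secreted by granule cells in the one tissue and by Cajal-Retzius cells in the other, was at 420.2, 469 and 448 CPM in cerebellum and 277, 234 and 228 CPM in brain and was not called.

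Chromatin regulators leaned toward the embryo. Of 32, 15 (46.9%) were called higher in brain, 3 (9.38%) higher in cerebellum and 14 in neither direction (median -0.92). Over all genes, 21.5% were higher in brain and 22.6% higher in cerebellum. With libraries scaled by their totals alone, 18 were called higher in brain. Among those higher in brain were *Uhrf1*, which guides maintenance methylation, at 94, 108 and 107 CPM against 1.02, 1.42 and 1.26 CPM, and *Hmgb2* at 187, 202 and 205 CPM against 5.88, 5.65 and 6.17 CPM. The 3 higher in cerebellum were *Cbx7*, *Ezh1* and *Hdac11*, with *Cbx7*, a polycomb chromodomain protein, at 91.2, 87.5 and 86.8 CPM against 5.52, 6.62 and 6.09 CPM. *Wiz* itself, at chr17:32354055-32389439 on the minus strand, was at 103, 103 and 103 CPM in cerebellum and 170.5, 184 and 175 CPM in brain. Every brain was above every cerebellum, but the log2 fold change of -0.78 (SE 0.04) was short of 2-fold (edgeR quasi-likelihood adjusted p = 3.87e-11). Its complex partners *Ehmt2* (G9a) and *Ehmt1* (GLP) had log2 fold changes of -0.78 and -1.41, of which the second was called.

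Of 24 neuronal splicing regulators, 10 (41.7%) were called higher in brain and 4 (16.7%) higher in cerebellum (median -0.88), and totals alone gave 13 and 4. Over all genes the shares were 21.5% and 22.6%. *Rbfox3*, the NeuN antigen of mature neurons, was at 441, 449 and 426 CPM against 61.8, 58.4 and 56 CPM, and *Mbnl2*, a regulator of adult exons, at 277, 289.8 and 299 CPM against 41.8, 33 and 42 CPM. *Elavl2*, an RNA-binding protein of young neurons, was at 258, 227 and 243 CPM in brain and 32.5, 31.8 and 37.8 CPM in cerebellum. *Qk*, with a role in glia, was level, at 417, 441 and 435 CPM and 428, 407 and 447 CPM, and the sign of its difference changed with the scaling.

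Genes listed for transmitters of other brain regions were called higher in the whole brain in 15 of 19 tested cases (78.9%), and higher in cerebellum in 2 (10.5%). Over all genes the shares were 21.5% and 22.6%. The summed level of the list differed little, at 153.7 to 158.6 CPM in brain and 135.9 to 143.4 CPM in cerebellum, where *Penk* held most of it. *Slc18a2*, the vesicular monoamine transporter, was at 40.5, 38.2 and 41.6 CPM in brain and 5.71, 5.73 and 5.51 CPM in cerebellum, and *Slc6a4*, the serotonin transporter, at 4.07, 4.71 and 3.65 CPM against 0.0352, 0.0729 and 0.14 CPM. *Sst*, the interneuron peptide, was at 29.9, 34.3 and 28.4 CPM against 2.29, 2.33 and 3.26 CPM. The 2 exceptions were peptide genes, *Penk*, at 91, 88 and 94.6 CPM in cerebellum and 11.7, 11.6 and 11.9 CPM in brain, and *Cck*, at 20.8, 22.9 and 21 CPM against 2.77, 1.79 and 1.81 CPM.

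Immediate-early genes, which neuronal activity and stress induce within minutes, were called higher in cerebellum in 13 of 18 cases and higher in brain in 2. *Fos* was at 36.6, 52.4 and 74.1 CPM in cerebellum and 1.17, 1.12 and 1.38 CPM in brain, and *Dusp1* at 43.4, 74.8 and 93.3 CPM against 28.3, 30.2 and 28.6 CPM. Both were lowest in cerebellum replicate 1 and highest in replicate 3. The summed level of the list spanned 451.7 to 603.2 CPM there and 190.3 to 194.7 CPM in brain. *Egr4*, with 1 brain read, was at 7.68, 8.02 and 9.15 CPM in cerebellum, a ratio of 900.1 (95% counting interval 161 to 35603). The 2 higher in brain, *Egr2* and *Egr3*, were below 1.2 CPM in every library.

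Clock genes were higher in the adult. Of 19 circadian clock genes, 17 were called higher in cerebellum and none higher in brain (median 2.98). *Nr1d1* and *Dbp*, output genes with strong daily rhythms, were at 200.4, 192 and 197 CPM and at 86.8, 81.8 and 91 CPM in cerebellum and at 5.5, 4.99 and 4.68 CPM and 4.03, 3.25 and 3.36 CPM in brain. *Arntl*, the core activator whose phase is opposite to theirs, was higher too, at 41, 38.1 and 37 CPM against 12.9, 12.8 and 13.5 CPM. The exceptions were *Nfil3* and *Rorb*. The hour of collection is not given in the sources used here, so a difference in mean level and a difference in phase cannot be told apart. Of 17 hormone response genes, 10 (58.8%) were called higher in cerebellum and 3 (17.6%) higher in brain, against 22.6% and 21.5% of all genes. *Klf9*, a target of thyroid hormone and glucocorticoid, was at 211, 197 and 189.6 CPM against 2.29, 2.47 and 1.79 CPM. *Dio2*, which activates thyroid hormone, was at 60.6, 57.5 and 52.5 CPM against 0.427, 0.336 and 0.352 CPM, and *Dio3*, which inactivates it, at 3.22, 2.97 and 2.27 CPM in brain against 0.106, 0.0729 and 0.0351 CPM in cerebellum. *Thra*, the main thyroid hormone receptor of brain, was not called, at 392, 382 and 391 CPM and 384, 381 and 352 CPM, while *Thrb* was at 13.3, 13.9 and 14.6 CPM against 1.75, 1.57 and 1.38 CPM.

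Paralogue pairs were compared within each library as RPKM, CPM divided by exon length in kilobases, so that their levels could be set side by side. They were chosen as members of a family that differ between embryonic and adult brain, and not every pair is a known replacement. In 6 of 18 pairs the member taken as early was called higher in brain and the member taken as late higher in cerebellum. The order of mean RPKM turned over in 11 pairs. A pair with a member too low to be tested counts among the 18. *Grin2b* and *Grin2c* were at 4.93 ± 0.67 and 0.131 ± 0.035 RPKM in brain (mean ± SD, n = 3) and at 0.992 ± 0.094 and 83.7 ± 2.26 RPKM in cerebellum. *Ezh2* and *Ezh1*, the polycomb methyltransferases of dividing and resting cells, were at 30.2 ± 1.10 and 4.01 ± 0.15 RPKM in brain and at 2.43 ± 0.15 and 16.9 ± 0.27 RPKM in cerebellum. *Slc17a6* and *Slc17a7*, the vesicular glutamate transporters, were at 24.9 ± 1.25 and 2.85 ± 0.60 RPKM in brain and at 4.90 ± 1.06 and 112.9 ± 2.56 RPKM in cerebellum. The other pairs called in opposite directions were *Gabra5* and *Gabra6*, *Scn3a* and *Scn8a*, and *Vcan* and *Bcan*. For all these pairs, a change with stage and a difference between regions cannot be told apart.

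Several other textbook pairs did not differ in opposite directions between these groups. For the SWI/SNF remodelling complex, the progenitor subunit *Actl6a* was called lower in cerebellum (3.15 ± 0.055 against 14.5 ± 1.08 RPKM), but its neuronal counterpart *Actl6b* was at 12.6 ± 0.19 RPKM in cerebellum and 19.4 ± 1.26 RPKM in brain. The neuronal subunit *Dpf1* was lower in cerebellum, at 3.91 ± 0.24 against 17.99 ± 0.88 RPKM, and *Ss18l1* was at 11.7 ± 0.18 against 29.2 ± 0.93 RPKM. *Ptbp1* and *Ptbp2* were both lower in cerebellum, and the log2 ratio of the second to the first lay between -0.037 and 0.15 in the 6 libraries. For chloride transport, *Slc12a5*, the exporter of mature neurons, was at 101.0 ± 0.76 against 11.02 ± 0.92 RPKM, and the importer *Slc12a2*, usually placed early, was also called higher in cerebellum, at 19.8 ± 0.23 against 7.95 ± 0.64 RPKM. *Slc12a2* is expressed in glia and choroid plexus as well.

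**Figure D4:**
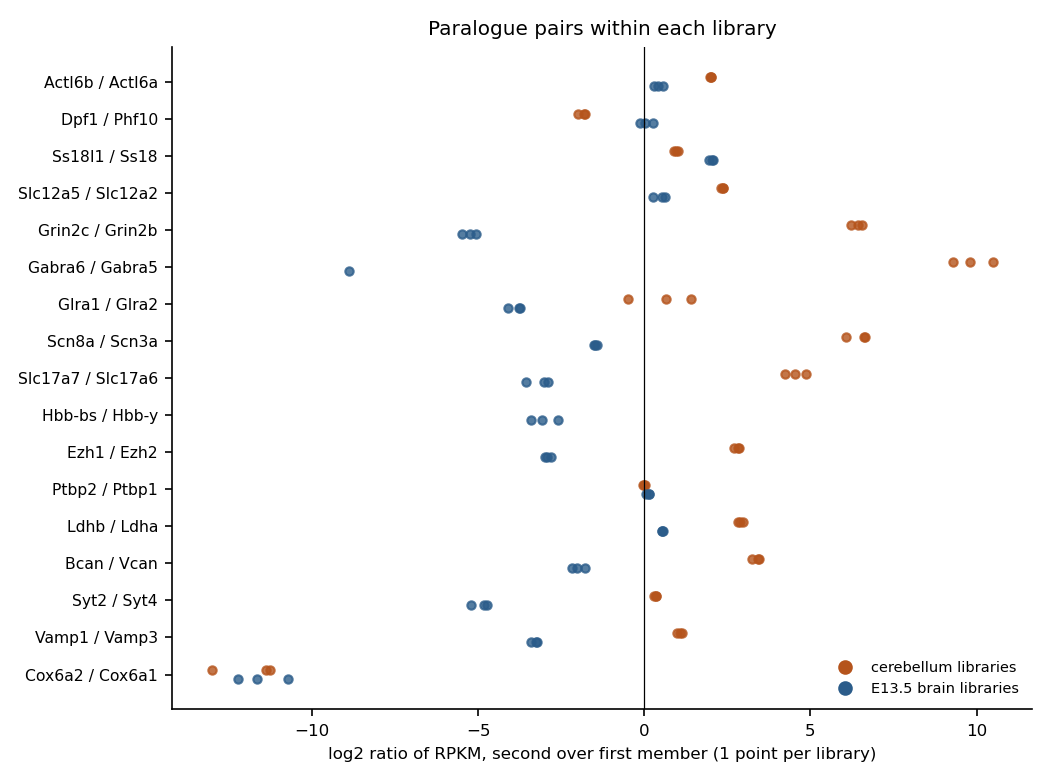
Log2 ratio of RPKM of the second over the first member of 17 of the paralogue pairs, with 1 point per library, orange for cerebellum and blue for E13.5 brain. Points right of the line mark libraries in which the second member was the more abundant. A library where either member had no read has no point, which applies to *Hbb-y* in cerebellum and to *Gabra6* in brain replicates 2 and 3, and the libraries of the groups lie on opposite sides of the line for *Grin2c* over *Grin2b* and *Ezh1* over *Ezh2*.

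The direction varied little with gene length. Among protein-coding genes in 5 bins of genomic span, the median log2 fold change was between -0.028 and 0.067, and of 933 genes over 200 kb, 30.7% were called higher in cerebellum and 26.0% higher in brain. By class, 22.6% of 15002 protein-coding genes were called higher in cerebellum and 20.8% higher in brain, and of 444 lincRNA genes 22.3% and 32.2%.

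The same contrast was available in libraries that share none with the fit above, the 3 cerebellums and 3 male E13.5 brains labelled Wiz MommeD30/+. There 7486 of 16967 genes tested (44.1%) were called. Of the 7422 genes called between the wildtype groups, 6884 (92.8%) were called in the same direction and none in the opposite one, and of those called in the heterozygotes, 92.0% were called in the same direction in the wildtype. All libraries are labelled as separate samples of a group, and p-values measure only the spread between these samples.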

How the data were processed

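RNA from 3 WT adult cerebellums and 3 WT male E13.5 brains was compared. The molecule is polyA RNA per the labels. Per the study's methods, RNA was extracted with Trizol, prepared with a TruSeq kit, sequenced as 100 bp single reads, aligned to mm10 with TopHat 2.0.11 and counted over gene exons with htseq-count 0.6.1. The authors deposited raw counts per Ensembl gene for each sample. The strand setting and the treatment of reads that match several genes are not given in the sources used here, so overlapping, antisense and near-identical genes are uncertain. Symbols, biotypes and exon lengths came from GENCODE for GRCm38, the same build, and promoters from RefSeq.

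Counts were fitted with edgeR 4.0.16 in R 4.3.3 (TMM scaling, filterByExpr with a minimum count of 10, quasi-likelihood test, Benjamini-Hochberg adjustment over 16840 genes). The fit held these 6 libraries and no covariate. A standard error is the log2 fold change divided by the square root of its F. The floor is 3 counts over a group, or 0.0356 CPM in cerebellum and 0.0276 CPM in brain. The procedure was tested on simulated data in which few genes changed, equally in both directions. That setting differs from these groups, where most genes differ, so it does not test the scaling here. Totals of 16386029 to 50459755 counts per library set the precision, and brain replicate 2 was the shallowest.

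The groups, gene lists and pairs were chosen with earlier results of these data known. Some lists share members, such as *Zic1*, *Rora*, *Gabra6* and *Enpp2*, so the list counts are not fully separate. Genes were named by rule: the 12 protein-coding genes in each direction with the largest fold change among called genes with no overlap and a mean of at least 50 CPM in the higher group, the 6 with the largest difference in mean CPM, the 4 most abundant members of each of 27 lists and up to 3 called members against their list's main direction, both members of 18 pairs, and *Wiz*. A further 72 genes named in the text were chosen after their values were seen. Alternatives covered scaling, filter, test (DESeq2 1.42.0), call rule, replicate block, embryo sex, genotype and each library left out. Same-numbered libraries of the groups did not deviate together (correlations of -0.0069, -0.0024 and 0.0085), so no pairing by number was seen. With 3 libraries per group this cannot exclude a shared batch. The ChIP-seq samples were not used here, and some genes that the rule names are not reported here.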

Additional observations from a re-analysis of the deposited data

How the results depend on the processing

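The limits on fold change moved the counts most. With the limits of 0.7 and 1.3, 11668 genes were called (6124 higher in cerebellum and 5544 higher in brain), with the adjusted p alone 14568 (7222 and 7346), and at 4-fold or more 3586 (1814 and 1772). The other alternatives called 5837 to 8851 genes, and leaving out each library in turn called 7537 to 7666. Scaling changed the balance: by library totals alone 3225 genes were higher in cerebellum and 4377 higher in brain, so 42.4% of calls were higher in cerebellum against 51.3%, and the median of all genes shifted by -0.21 (upper quartile -0.11).

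With the replicate number as a block, 7438 genes were called (3814 and 3624), and it changed no call among the genes named. The labels link same-numbered libraries by the number alone, and the deviations of these libraries did not correlate.

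Of 2795 comparisons for 165 genes named by rule, 2766 kept direction and side of the threshold. No list median changed sign in 458 comparisons, and 108 moved by more than the replicate spread. Signs turned only for genes with small or variable differences, as follows on the log2 scale. By library totals alone the values were -0.20 for *Qk*, -0.15 for *Thra*, -0.068 for *Gabra2*, -0.17 for *Vamp3* and -0.063 for *Cntn2*. By upper quartile they were -0.098 for *Qk*, -0.048 for *Thra* and -0.065 for *Vamp3*. In the MommeD30/+ samples they were 0.012 for *Hba-a1*, -0.013 for *Qk*, -0.71 for *Glra1* and 0.031 for *Eomes*. Against female brains they were -0.10 for *Hbb-bs*, 0.022 for *Ccne1*, 1.15 for *Eomes*, 0.17 for *Fgfr3* and -1.15 for *mt-Co2*. Against both sexes they were 0.21 for *Eomes*, 0.031 for *Fgfr3* and -0.43 for *mt-Co2*. Leaving out each library in turn gave ranges that crossed 0, of -0.064 to 0.0069 for *Cx3cr1*, -0.017 to 0.046 for *Qk*, -0.12 to 0.056 for *Nr4a2* and -0.11 to 0.0046 for *Fgfr3*. The cause was not tested.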

Other observations

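Genes were also grouped by the letters that open their symbols, a grouping chosen after the values were seen. Letters alone set each group, with no filter by gene class, so a group can hold genes outside the family named. Symbols opening with Rps were called higher in brain in 32 of 48 cases and higher in cerebellum in 4. For Rpl these were 29 of 51 and 0, and the median log2 fold changes were -1.20 and -1.06. Ribosomal protein genes, picked by full symbol among protein-coding genes, held 2.10% to 2.18% of counts in brain and 0.788% to 0.824% in cerebellum. Many have processed copies that can share their reads. Mitochondrial ribosomal protein genes differed little, with 1 of 29 Mrps and 2 of 49 Mrpl genes called higher in cerebellum and none higher in brain. Symbols opening with Cox, which cytochrome c oxidase genes carry, were called higher in cerebellum in 13 of 24 cases and higher in brain in none. For solute carriers (Slc) these were 121 of 303 and 47, and for ATPases and ATP synthase subunits (Atp) 31 of 76 and 6. Of 374 zinc finger protein genes (Zfp), 87 (23.3%) were called higher in brain, near the share of all genes, and 21 (5.61%) higher in cerebellum. The share called over all genes tested was 22.6% higher in cerebellum and 21.5% higher in brain.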
